A study of Mus musculus with 24 samples.

Results

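The miR-126 products of the mouse mammary gland were followed across 4 stages of its development. The members are mmu-miR-126a-3p and mmu-miR-126a-5p, the mature miRNAs of the 2 arms of the Mir126a hairpin, and mmu-miR-126b-5p, a product of the Mir126b hairpin on the opposite strand. They were taken by name from the deposited list, and make up 3 of its 1009 miRNAs. Abdominal and inguinal glands of 24 female mice of the inbred strain C57BL/6 were homogenised whole, and each mouse gave 1 small RNA library. Groups of 6 mice stood for adults aged 10 weeks (W10), pregnancy at gestation day 18 (P18), lactation at its day 7 (Lac7) and involution at its day 3 (Inv3), when the gland regresses once milk removal has ended. The library labels and the study's methods give these days, whereas the text of the series gives day 3 of lactation and day 7 of involution. The labels name no transgene or treatment, and no cell type was sorted. Each library held 660346 to 1165321 reads on miRNAs. All Lac7 libraries (660346 to 751890 reads) held fewer than any of W10 (911336 to 1143715) or P18 (870030 to 1165216). Inv3 libraries held 722068 to 1165321. Values are in RPM, the reads of a miRNA per 1000000 reads assigned to any listed miRNA, and the level of 1 miRNA also depends on the reads that all others take.

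miR-126 is known as a miRNA of endothelial cells, the lining of blood vessels, and is made from an intron of Egfl7, which encodes a protein that endothelial cells secrete. Its 3p arm is known to repress Spred1 and Pik3r2, which restrain signalling from the VEGF receptor, and Vcam1, a leukocyte adhesion molecule. Its 5p arm is known to repress Dlk1 and thereby to favour endothelial proliferation. Vessels of the mammary gland expand in pregnancy around the growing alveoli, supply milk synthesis in lactation and are remodelled in involution.

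The sequences are shown because the hairpins lie on opposite strands of the same DNA, which bears on the comparison of the arms. RefSeq sequences on GRCm38.p6 matched 2 of the 3 members, and a mature sequence was not found for miR-126a-5p. In the lines for mature miRNAs, capitals mark the seed (bases 2 to 8), the stretch that pairs with targets. In the lines for hairpins, capitals mark the mature products given here. miR-126b-3p, the other arm of the Mir126b hairpin, is no member and is shown for comparison.
mmu-miR-126a-3p: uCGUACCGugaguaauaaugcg
mmu-miR-126b-5p: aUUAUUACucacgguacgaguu
mmu-miR-126b-3p: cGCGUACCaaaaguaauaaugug
Mir126a hairpin: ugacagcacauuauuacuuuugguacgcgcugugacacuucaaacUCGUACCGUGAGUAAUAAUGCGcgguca
Mir126b hairpin: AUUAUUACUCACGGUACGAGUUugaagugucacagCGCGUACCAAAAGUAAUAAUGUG

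miR-126a-3p lies at chr2:26591402-26591423 on the plus strand, miR-126b-5p at chr2:26591399-26591420 and miR-126b-3p at chr2:26591363-26591385, both on the minus strand. The Mir126a hairpin covers 73 bases (chr2:26591357-26591429, plus strand) and the Mir126b hairpin 58 bases (chr2:26591363-26591420, minus strand). The Mir126b hairpin is an unbroken stretch of the reverse complement of the Mir126a hairpin. miR-126a-3p and miR-126b-5p overlap by 19 bases on opposite strands. The reverse complement of miR-126b-3p fills bases 7 to 29 of the Mir126a hairpin, ahead of miR-126a-3p at bases 46 to 67, and so lies on the 5p side of that hairpin. Of the 1679 mature names with a sequence, none besides the miRNA itself had the seed CGUACCG of miR-126a-3p, UUAUUAC of miR-126b-5p or GCGUACC of miR-126b-3p. In the annotation, Egfl7 runs over chr2:26580014-26593120 on the plus strand. The Mir126a hairpin was intronic in 8 of its 19 transcripts, 7 of them protein coding, and in intron 7 of Egfl7-201. It was exonic in 1 transcript with a retained intron and outside the remaining 10.

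miR-126a-3p was one of the most abundant miRNAs of the gland, and its RPM level was nearly the same at W10, P18 and Inv3 and slightly higher at Lac7. At W10 the 6 mice had 15105.4 to 16424.9 RPM, with a median of 15322.3 and a mean of 15508.9 ± 513 (SD, n = 6). At P18 they had 14704.0 to 16133.9 RPM, with a median of 15501.2 and a mean of 15417.4 ± 484 (SD, n = 6). The ranges of W10 and P18 overlapped, although 2 mice of P18 lay below all mice of W10 and W10 mouse 7 lay above all mice of P18. At Lac7 the level rose to 16937.6 to 19311.6 RPM, with a median of 18212.5 and a mean of 18208.7 ± 935 (SD, n = 6). All 6 mice of Lac7 lay above all mice of W10 and P18. At Inv3 the range widened to 12293.5 to 17665.9 RPM, with a median of 15918.7 and a mean of 15309.8 ± 2318 (SD, n = 6). Mice 1 and 2 of Inv3, with 12715.0 and 12293.5 RPM, were lower than every mouse of the other stages, and mice 3, 4 and 6 were higher than every mouse of W10 (16462.8, 17665.9 and 17347.4 RPM). The coefficient of variation was 15.1% at Inv3, against 3.31% at W10, 3.14% at P18 and 5.14% at Lac7. Each library held 11282 to 18024 reads of miR-126a-3p, for which counting error alone gives stage averages of 0.80% to 0.88%. By its mean, it ranked 13th at W10, 12th at P18, 14th at Lac7 and 13th at Inv3, with 1.53% to 1.82% of the reads.

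miR-126a-5p was rare beside its partner, and fell in late pregnancy. At W10 the mice had 251.0 to 363.7 RPM, with a median of 307.1 and a mean of 307 ± 56.0 (SD, n = 6). Mice 2, 4 and 7 of W10 lay at 354.1 RPM and above, and mice 1, 3 and 5 at 260.1 RPM and below. At P18 the range was 129 to 287 RPM, with a median of 183 and a mean of 190 ± 54.2 (SD, n = 6), and 5 of the 6 mice lay below all mice of W10. The highest mouse of P18, mouse 6, was also the highest of that stage for miR-126a-3p and miR-126b-5p. At Lac7 the range was 219 to 295 RPM, with a median of 258 and a mean of 258 ± 28.0 (SD, n = 6). At Inv3 it was 239 to 356 RPM, with a median of 277 and a mean of 284 ± 39.9 (SD, n = 6), and all stages but P18 overlapped widely. Each library held 121 to 407 of its reads, for which counting error alone gives a coefficient of variation that averaged 5.68% to 7.43% by stage. Counting error leaves out the errors of library preparation.

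miR-126b-5p was the rarest of the members and also lowest at P18. At W10 the mice had 127 to 182 RPM, with a median of 144 and a mean of 150 ± 20.6 (SD, n = 6). At P18 they had 92.2 to 143 RPM, with a median of 107 and a mean of 110 ± 19.0 (SD, n = 6), and 5 of the 6 mice lay below all mice of W10. At Lac7 they had 129.8 to 152 RPM, with a median of 146 and a mean of 144 ± 8.0 (SD, n = 6). At Inv3 they had 102 to 159 RPM, with a median of 125 and a mean of 131 ± 22.3 (SD, n = 6), a range that took in that of Lac7. Each library held 85 to 183 reads of it, and counting error alone gives stage averages of 8.12% to 9.96%, above the spread of 5.56% between the mice of Lac7.

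**Figure D1:**
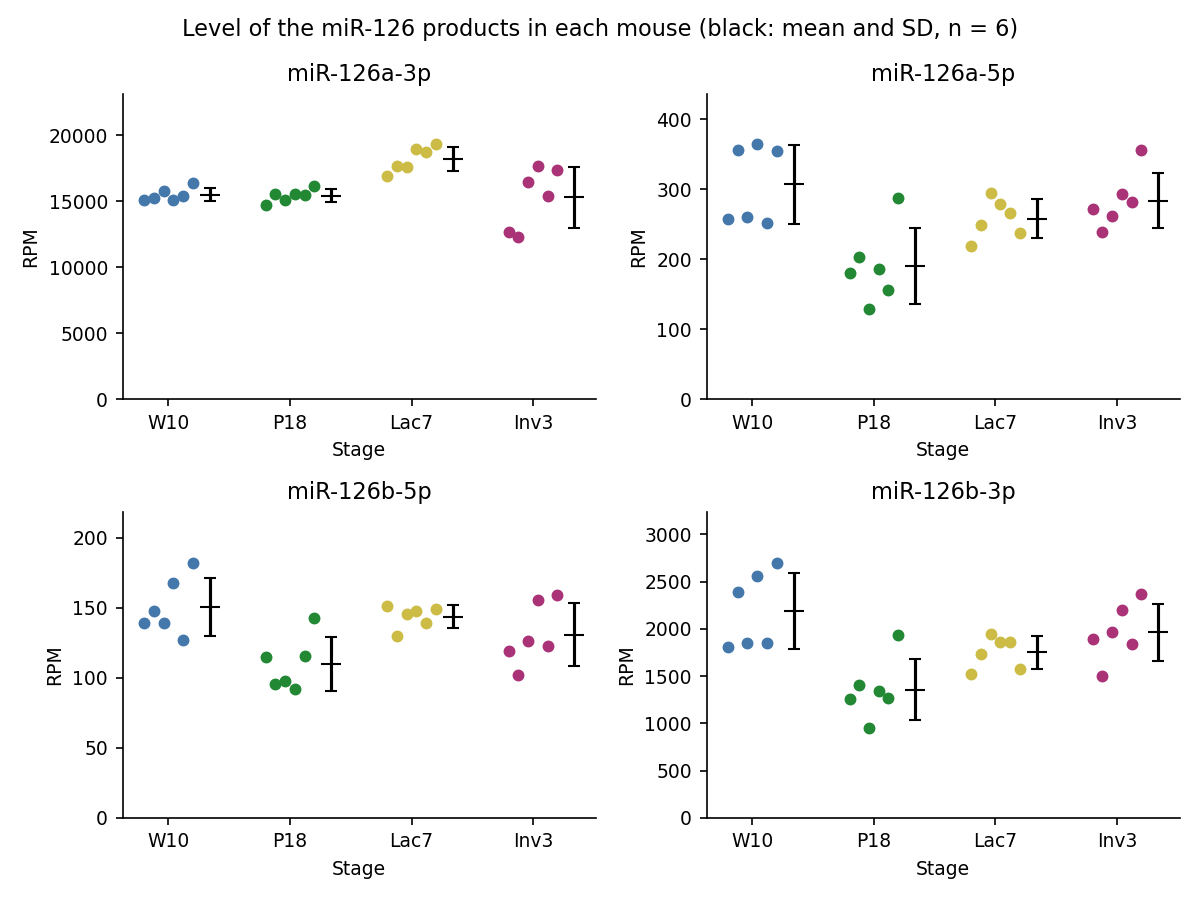
Level in RPM (vertical axis, from 0) of miR-126a-3p, miR-126a-5p, miR-126b-5p and, for comparison, miR-126b-3p in each mouse (points) at each stage (horizontal axis), with the mean and SD of the 6 mice in black. miR-126a-3p is highest at Lac7 in RPM and most spread at Inv3, while the other products are lowest at P18.

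The stages were compared with limma on log2(RPM + 1), in 1 fit of the 544 miRNAs that averaged 1 RPM or more at a stage, and a change was called at a Benjamini-Hochberg adjusted p under 0.05. All 3 members passed this filter. From W10 to P18, 2 of the 3 members fell, where 41.5% of all tested miRNAs were called. miR-126a-5p fell by 0.71 on the log2 scale (SE 0.16, adjusted p = 0.000595) and miR-126b-5p fell by 0.46 (SE 0.14, adjusted p = 0.0102). The log2 fold change of miR-126a-3p was -0.01 (95% interval -0.20 to 0.18, adjusted p = 0.95). From P18 to Lac7, all 3 rose, where 45.2% of the tested miRNAs were called. miR-126a-3p rose by 0.24 (SE 0.09, adjusted p = 0.0331), miR-126a-5p by 0.47 (SE 0.16, adjusted p = 0.0164) and miR-126b-5p by 0.40 (SE 0.14, adjusted p = 0.0215). The groups overlapped for miR-126a-5p and miR-126b-5p. The call for miR-126a-3p was lost without any 1 of P18 mice 1 or 3 or Lac7 mice 4, 5 or 6 (adjusted p up to 0.0659), that for miR-126a-5p without P18 mouse 3 (0.37, adjusted p = 0.0589) and that for miR-126b-5p without P18 mouse 2 (0.36) or 4 (0.35, adjusted p up to 0.0569).

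From Lac7 to Inv3, 1 of the 3 members changed, where 46.9% of the tested miRNAs were called. miR-126a-3p fell by 0.26 (SE 0.09, adjusted p = 0.0192), and 4 of the 6 mice of Inv3 lay below all mice of Lac7. This call was lost without Inv3 mouse 1 (-0.21, adjusted p = 0.0574) or mouse 2 (-0.20, adjusted p = 0.0622), and without both the difference was -0.12 (adjusted p = 0.214). The differences of miR-126a-5p and miR-126b-5p were 0.13 (95% interval -0.20 to 0.46, adjusted p = 0.51) and -0.15 (95% interval -0.44 to 0.14, adjusted p = 0.40). Against W10, miR-126a-3p was 0.23 higher at Lac7 (SE 0.09, adjusted p = 0.0285), 1 of the 3 members where 66.7% of the tested miRNAs were called, and without Lac7 mouse 4, 5 or 6 it was no longer called (adjusted p up to 0.0565). Between Inv3 and W10 no member was called by limma on RPM, where 39.2% of the tested miRNAs were. The differences were -0.03 for miR-126a-3p (95% interval -0.22 to 0.16), -0.10 for miR-126a-5p (95% interval -0.43 to 0.23) and -0.21 for miR-126b-5p (95% interval -0.50 to 0.08), with adjusted p of 0.81, 0.64 and 0.25 in limma. Between Inv3 and P18, 1 of the 3 was called, where 28.5% of the tested miRNAs were, and this was miR-126a-5p, 0.61 higher at Inv3 (SE 0.16, adjusted p = 0.00548). The difference of miR-126b-5p was 0.25 (95% interval -0.04 to 0.54, adjusted p = 0.216) in RPM, and it was called with size factors (0.38, limma adjusted p = 0.0407) and by DESeq2 (0.38, adjusted p = 0.0179). Each stage enters 3 of these comparisons, which are therefore not independent of each other.

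The order of the stages for miR-126a-3p depended on the scaling. RPM holds the total of each library fixed, and the median log2 fold change of all 544 miRNAs was -0.32 for P18 against W10, -0.34 for Lac7 against P18 and -0.66 for Lac7 against W10. With DESeq2 size factors, which centre the libraries on the typical miRNA, these medians were -0.12, -0.14 and -0.31. The called miRNAs split into 66 higher and 160 lower at P18 than at W10 in RPM, and 93 and 121 with size factors. For Lac7 against P18 the split moved from 75 higher and 171 lower to 105 and 131, for Lac7 against W10 from 99 and 264 to 131 and 206, for Inv3 against W10 from 43 and 170 to 71 and 91, and for Inv3 against Lac7 from 152 and 103 to 126 and 121. On the RPM scale, the highest stage mean of miR-126a-3p was 1.19 times the lowest, the smallest such fold of the 188 miRNAs that averaged 100 RPM or more at a stage, whose median fold was 2.70. With size factors the fold of miR-126a-3p was 1.73, which ranked 34th from the smallest, and its lowest stage was W10 in place of Inv3. The place of W10 in the order thus depended on the scale, whereas the difference between Inv3 and P18 did not pass the test on either scale (-0.02 in RPM, and 0.10 with size factors, limma adjusted p = 0.497).

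With size factors, miR-126a-3p was 0.24 higher at P18 than at W10, which limma did not call (adjusted p = 0.0553). On whole reads recovered from the RPM values, edgeR (0.29, adjusted p = 0.0259) and DESeq2 (0.24, adjusted p = 0.0233) did call it. With size factors, miR-126a-3p rose by 0.54 from P18 to Lac7 (adjusted p = 6.07e-05, limma) and fell by 0.44 from Lac7 to Inv3 (adjusted p = 0.000656, limma). It was then also 0.35 higher at Inv3 than at W10 (adjusted p = 0.00928, limma), where the RPM value was -0.03. Relative to the median of all miRNAs, miR-126a-3p stood 0.31 higher at P18 than at W10 in RPM and 0.36 higher with size factors. For Lac7 against W10 it stood 0.89 and 1.10 above the median change. The fall of miR-126a-5p from W10 to P18 was -0.46 with size factors (adjusted p = 0.0130, limma), while that of miR-126b-5p was -0.21 and no longer called (adjusted p = 0.239, limma). miR-126b-5p was 0.50 higher at Lac7 than at W10 with size factors (adjusted p = 0.00272, limma), against -0.06 in RPM, and miR-126a-5p 0.32 higher (adjusted p = 0.0619, limma), against -0.24 in RPM.

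**Figure D2:**
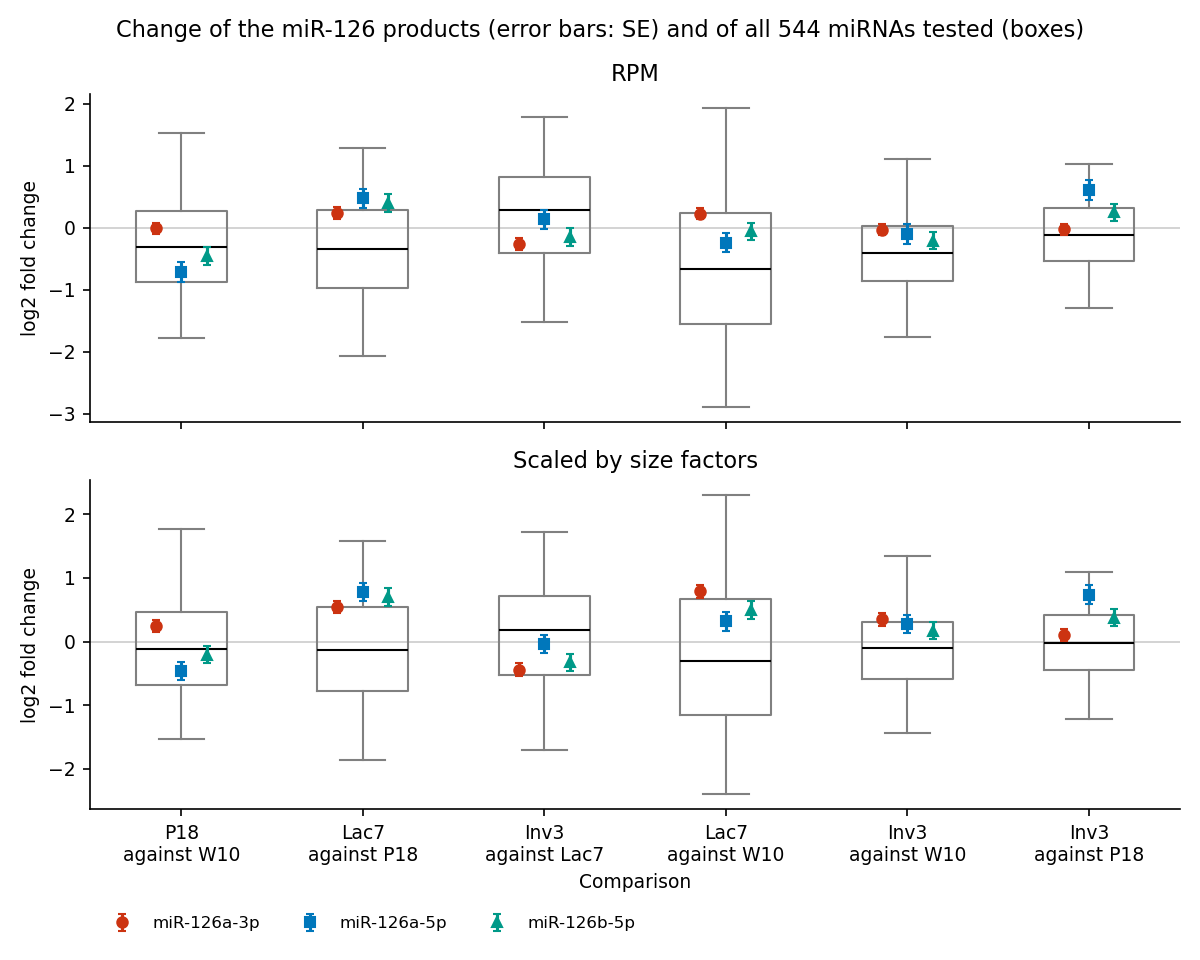
Log2 fold change (vertical axis) of the members in 6 comparisons of stages (horizontal axis), as points with SE bars, on RPM (upper panel) and after scaling by size factors (lower panel). Boxes give the median and quartiles and whiskers the 5th to 95th percentiles of all 544 miRNAs tested. At Lac7 against W10, miR-126a-3p lies at 0.23 in RPM and 0.79 with size factors, whereas for Inv3 against W10 its sign turns from -0.03 to 0.35.

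The arms of miR-126a were compared within each library, where the scaling cancels. The ratio of miR-126a-3p to miR-126a-5p was highest at P18. At W10 it was 41.5 to 61.5, with a median of 52.6 and a mean of 51.9 ± 9.35 (SD, n = 6). At P18 it was 56.1 to 117, with a median of 82.4 and a mean of 85.7 ± 20.7 (SD, n = 6), and 1 mouse, mouse 6, lay within the range of W10. At Lac7 it was 59.6 to 81.4, with a median of 70.7 and a mean of 71.3 ± 7.56 (SD, n = 6). At Inv3 it was 46.7 to 62.9, with a median of 53.1 and a mean of 54.2 ± 6.41 (SD, n = 6), and the ranges of Inv3 and W10 largely coincided. Every pair of stages overlapped in at least 1 mouse.

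The log2 arm ratio rose by 0.70 from W10 to P18 (SE 0.15, limma over 67 arm pairs, adjusted p = 0.000621), where 38.8% of all pairs were called, and an exact two-sided permutation of 6 mice against 6 gave p = 0.00866 (adjusted over 6 comparisons, 0.0130). It did not pass the test from P18 to Lac7 (-0.23, 95% interval -0.54 to 0.07, adjusted p = 0.237), where 25.4% of the pairs were called. From Lac7 to Inv3 it fell by 0.40 (SE 0.15, limma adjusted p = 0.0305), where 49.3% were called. This last call was lost in limma without Lac7 mouse 1 or 6 or Inv3 mouse 1, 2 or 6 (adjusted p up to 0.0745), and without Inv3 mice 1 and 2 together it was -0.33 (adjusted p = 0.130). It was 0.47 higher at Lac7 than at W10 (limma adjusted p = 0.0106), where 47.8% were called, and fell by 0.63 from P18 to Inv3 (limma adjusted p = 0.00231), where 32.8% were called. Between W10 and Inv3 the difference was 0.07 (95% interval -0.24 to 0.38, limma adjusted p = 0.875), where 5.97% were called.

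The 67 pairs were all hairpins of which both arms averaged at least 10 RPM over the libraries. The 3p arm was the more abundant in 31 of them. The major arm exceeded the minor one by a median factor of 11.6, in which miR-126a ranked 13th from the largest. This rank holds only for the products as listed. When each was summed with its product of the opposite strand, the ratio averaged from 6.43 at W10 to 10.5 at P18, below that median. Across the stages the ratio changed by a median factor of 1.85 over the pairs, and miR-126a ranked 45th from the largest in this respect. The change of the arm ratio of miR-126a was thus smaller than that of most pairs. The 3 pairs nearest in the level of the 3p arm were miR-148a, a miRNA of the secretory epithelium and of milk, miR-200b, an epithelial miRNA, and miR-27b. Their mean ratios of 3p to 5p at W10 and P18 were 1215 and 889 for miR-148a, 75.5 and 65.7 for miR-200b, and 2497 and 1614 for miR-27b. The log2 ratio of miR-27b fell by 0.71 between these stages (limma adjusted p = 0.0463), while the differences of miR-148a (-0.16, adjusted p = 0.73) and miR-200b (-0.12, adjusted p = 0.66) did not pass the test of limma.

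**Figure D3:**
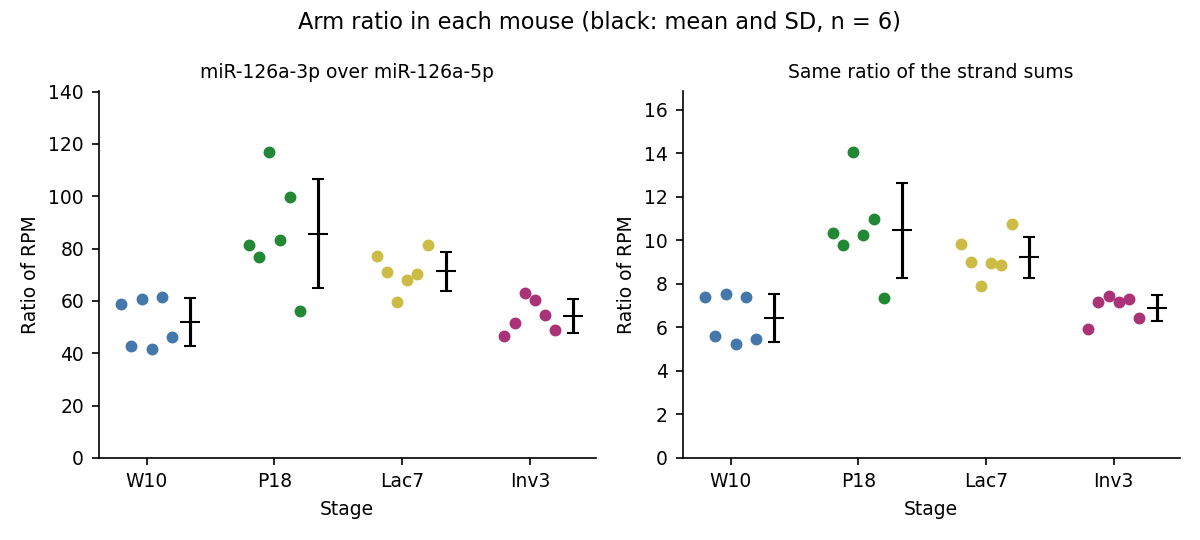
Ratio of RPM values (vertical axes, from 0) in each mouse (points) by stage (horizontal axis), with the mean and SD of 6 mice in black, for miR-126a-3p over miR-126a-5p (left) and for the same after each product was summed with its antisense product (right). Both ratios are highest at P18, at 85.7 and 10.5 on average.

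The level of the ratio depended on how reads from the opposite strands were assigned. miR-126b-3p, which lies antisense to the 5p side of the Mir126a hairpin, averaged 2192 ± 401 RPM in W10 mice, 1357 ± 322 RPM in P18 mice, 1749 ± 171 RPM in Lac7 mice and 1961 ± 302 RPM in Inv3 mice (SD, n = 6), several times the level of miR-126a-5p. Its ratio to miR-126a-5p was nearly fixed, from 6.27 to 8.15 over the 24 libraries, a 1.30-fold range, while that of miR-126a-3p to miR-126a-5p ranged 2.82-fold, from 41.5 to 117. miR-126a-5p took 12.3%, 12.2%, 12.8% and 12.6% of the joint reads of miR-126a-5p and miR-126b-3p at W10, P18, Lac7 and Inv3. As a description, the chi-square per degree of freedom (23) over the libraries was 0.726 for this pair, where 1 is the size that counting error alone gives. It was 15.1 for miR-126a-3p with miR-126a-5p, 3.00 for miR-126a-3p with miR-126b-5p, 2.35 for miR-126b-3p with miR-126b-5p and 2.07 for miR-126a-5p with miR-126b-5p. The lowest value over the 67 arm pairs was 1.09, and the median was 4.76. The split of reads between miR-126a-5p and miR-126b-3p thus varied no more between libraries than counting alone would give.

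The study's methods name a stranded library kit, but the sources used here do not state whether the counting used strand, so reads of miR-126a-5p and miR-126b-3p, and of miR-126a-3p and miR-126b-5p, cannot be told apart with certainty. Levels of other miRNAs of opposite strands with overlapping products differed from pair to pair. miR-24-3p averaged 550 RPM and its antisense product miR-3074-5p 5811 RPM, with a chi-square per degree of freedom of 1.30. miR-142a-3p averaged 2422 RPM and miR-142b 37332 RPM, with 2.98, miR-3065-5p and miR-338-3p, at 293 and 218 RPM, had 13.6, and miR-30f and miR-30e-3p, at 28.0 and 14.5 RPM, had 1.29. When miR-126a-5p was summed with miR-126b-3p, and miR-126a-3p with miR-126b-5p, the mean arm ratio was 6.43 ± 1.11, 10.5 ± 2.17, 9.21 ± 0.96 and 6.90 ± 0.59 at W10, P18, Lac7 and Inv3 (SD, n = 6). The summed ratio rose by 0.69 on the log2 scale from W10 to P18 (limma adjusted p = 0.000166), against 0.70 for the members as listed. The sum of miR-126a-5p and miR-126b-3p fell by 0.70 from W10 to P18 (limma adjusted p = 0.000235) and rose by 0.40 from P18 to Lac7 (limma adjusted p = 0.0234). The changes between stages were of similar size with and without the sum, and the excess of the 3p arm was smaller with it. Both follow from the nearly fixed ratio of miR-126b-3p to miR-126a-5p. miR-126b-5p adds little to miR-126a-3p, as it took 0.59% to 1.10% of their joint reads. The sum is therefore no independent check of how reads were assigned to the strands.

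**Figure D4:**
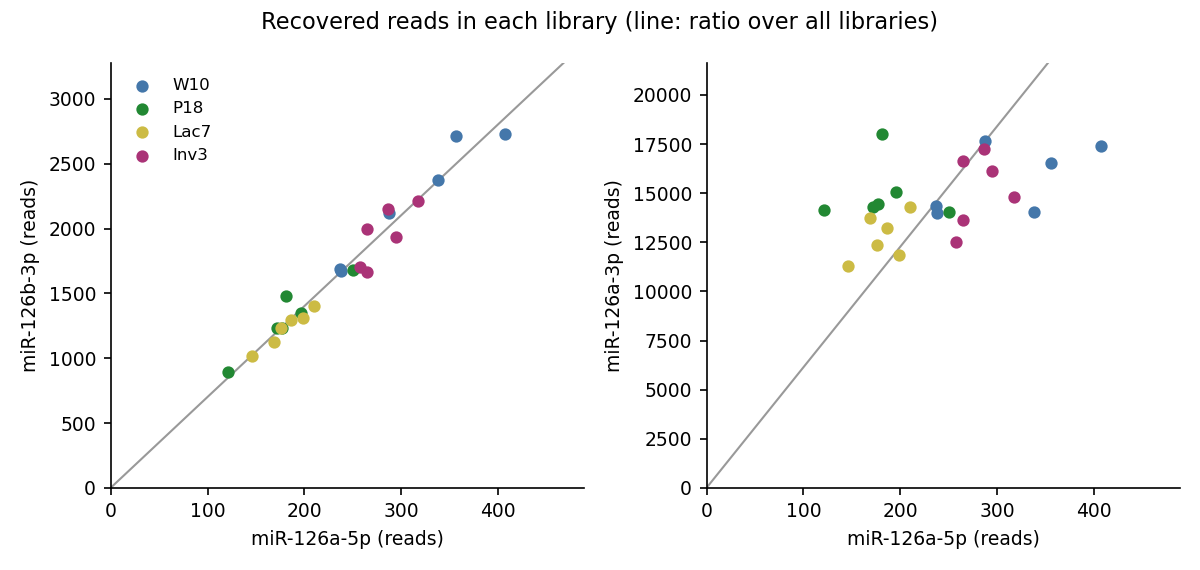
Recovered reads of miR-126b-3p (left, vertical axis) and of miR-126a-3p (right, vertical axis) against those of miR-126a-5p (horizontal axes) in each of the 24 libraries, coloured by stage. The grey lines are the ratios over all libraries. The points lie along the line on the left, with ratios from 6.27 to 8.15, and spread around it on the right, with ratios from 41.5 to 117.

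Most of the other miRNAs linked to endothelium were lower at Lac7 than at W10 in RPM, as were most of all called miRNAs. Of 9 such miRNAs, 0 rose and 6 fell from W10 to P18, 2 rose and 4 fell from P18 to Lac7, and 5 rose and 0 fell from Lac7 to Inv3, with median log2 fold changes of -0.42, -0.52 and 0.56. Over all 544 tested miRNAs, 66 rose and 160 fell, 75 rose and 171 fell, and 152 rose and 103 fell in these comparisons, with medians of -0.32, -0.34 and 0.28. Against W10, 1 was higher and 6 lower at Lac7 and 1 higher and 3 lower at Inv3, and against P18, 3 were higher and 0 lower at Inv3. Over all 544 tested miRNAs, 99 were higher and 264 lower, 43 higher and 170 lower, and 59 higher and 96 lower in these comparisons. Their summed level ranged from 9257 to 13978 RPM in W10 mice, from 7043 to 9826 RPM in P18 mice, from 6875 to 7941 RPM in Lac7 mice and from 9802 to 11095 RPM in Inv3 mice, and no member of the list was at 0 throughout a stage. miR-10a-5p, known for restraining endothelial inflammation, averaged 8177, 6193, 4238 and 6760 RPM over the 4 stages in order, and fell by 0.54 from P18 to Lac7 (limma adjusted p = 0.000786), where miR-126a-3p rose by 0.24. miR-10b-5p averaged 746 RPM at W10 and 499 at Lac7, and miR-100-5p, a regulator of Mtor, 126 and 14.6 RPM. miR-221-3p, a regulator of the receptor Kit, rose by 0.50 from P18 to Lac7, as miR-126a-3p did (limma adjusted p = 0.000408). With size factors, the median log2 fold change of the 9 against W10 was -0.78 at Lac7 and 0.13 at Inv3. In RPM these medians were -0.99 and -0.25. Over all tested miRNAs, the medians with size factors were -0.31 and -0.10. In these bulk glands, fewer cells of a type and less RNA per cell cannot be told apart, and these miRNAs are also made by other cells.

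Of 19 miRNAs of a list for vessel growth that passed the filter, of 20 listed, 6 rose and 5 fell from W10 to P18, 2 rose and 11 fell from P18 to Lac7, and 9 rose and 3 fell from Lac7 to Inv3. The median log2 fold changes were 0.27, -0.77 and 0.28 in RPM, beside -0.32, -0.34 and 0.28 over all tested miRNAs, of which 41.5%, 45.2% and 46.9% were called, mostly lower into P18 and Lac7 and mostly higher into Inv3. Against W10, 4 were higher and 11 lower at Lac7 and 4 higher and 7 lower at Inv3, and against P18, 4 were higher and 7 lower at Inv3. In these comparisons 66.7%, 39.2% and 28.5% of all tested miRNAs were called, with 99 higher and 264 lower, 43 and 170, and 59 and 96. These counts are in RPM, and the list medians against W10 depended on the scale. For Lac7 against W10 the list median was -0.59 in RPM and -0.04 with size factors. For Inv3 against W10 it was -0.02 in RPM and 0.36 with size factors. Over all tested miRNAs, the medians with size factors were -0.31 and -0.10. In lactation, when miR-126a-3p was highest, all 6 listed members of the miR-17-92 cluster fell from P18, among them miR-17-5p, miR-18a-5p, miR-19a-3p and miR-19b-3p. miR-92a-3p, which restrains vessel growth, fell by 2.19 from P18 to Lac7 (limma adjusted p = 2.59e-08) and miR-20a-5p fell by 1.17 (limma adjusted p = 3.63e-06). miR-23a-3p, miR-322-5p, miR-15b-5p and miR-16-5p also fell there, by 1.13, 1.25, 0.98 and 0.72. miR-210-3p, induced by hypoxia, rose by 1.30 (limma adjusted p = 0.00285) and miR-27b-3p by 0.47 (limma adjusted p = 0.00109), alongside miR-126a-3p. miR-23b-3p (0.12), miR-27a-3p (-0.17), miR-24-3p (0.24), miR-130a-3p (-0.37) and miR-34a-5p (-0.25) did not pass the test of limma between P18 and Lac7.

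Over the 24 libraries, the 5 miRNAs whose log2(RPM + 1) was most like that of miR-126a-3p, of 185 that averaged 100 RPM or more at a stage, were miR-181a-1-3p (Pearson r = 0.81), miR-148b-3p (0.81), miR-30a-3p (0.79), let-7f-5p (0.79) and miR-151-5p (0.77). Their levels were also highest at Lac7, as for let-7f-5p with 18298 RPM there, against 12563 RPM at W10, 14271 RPM at P18 and 11490 RPM at Inv3. miR-126a-5p itself had r = 0.19 with miR-126a-3p, and miR-126b-3p, which ranked 62nd, r = 0.21. These values describe libraries that share their stages and a fixed total, and let-7f-5p has close relatives to which its reads could be assigned.

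Between the mice of a stage, after the stage means were subtracted, miR-126a-3p was related to miR-126a-5p with r = 0.36 (permutation p = 0.0222, adjusted over 7 relations 0.0777) and rho = 0.36 (adjusted p = 0.251 by permutation), and leaving out the 2 most extreme mice of the horizontal measure gave r = 0.37. The widest separation of mice was at Inv3. The tests of relations with markers of other cells pooled all stages, so that none was made for Inv3 alone. miR-126a-3p was related inversely to the summed level of 5 fibroblast miRNAs (r = -0.77, permutation p = 0.0004, adjusted 0.0028; rho = -0.77, adjusted 0.00154; r = -0.67 after leaving out the 2 most extreme mice of that sum). With size factors this r was -0.29 (adjusted p = 0.709 by permutation), and without the 6 mice of Inv3 it was -0.62 (adjusted p = 0.119 by permutation). Within W10, P18, Lac7 and Inv3 it was -0.22, -0.64, -0.84 and -0.92. With the sum of 7 epithelial miRNAs r was 0.75 (adjusted p = 0.106 by permutation) and rho 0.34 (adjusted p = 0.308), and within the stages -0.56, 0.59, -0.64 and 0.88, so that the pooled value did not hold within W10 and Lac7. For the remaining lists, r was -0.28 for mural cells, -0.18 for skeletal muscle, 0.27 for red blood cells and -0.11 for leukocytes, with adjusted p of 0.51, 0.34, 0.29 and 0.54 by permutation. Within W10, P18, Lac7 and Inv3, r with the leukocyte sum was 0.03, 0.25, 0.56 and -0.87, so that its sign differed between stages.

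**Figure D5:**
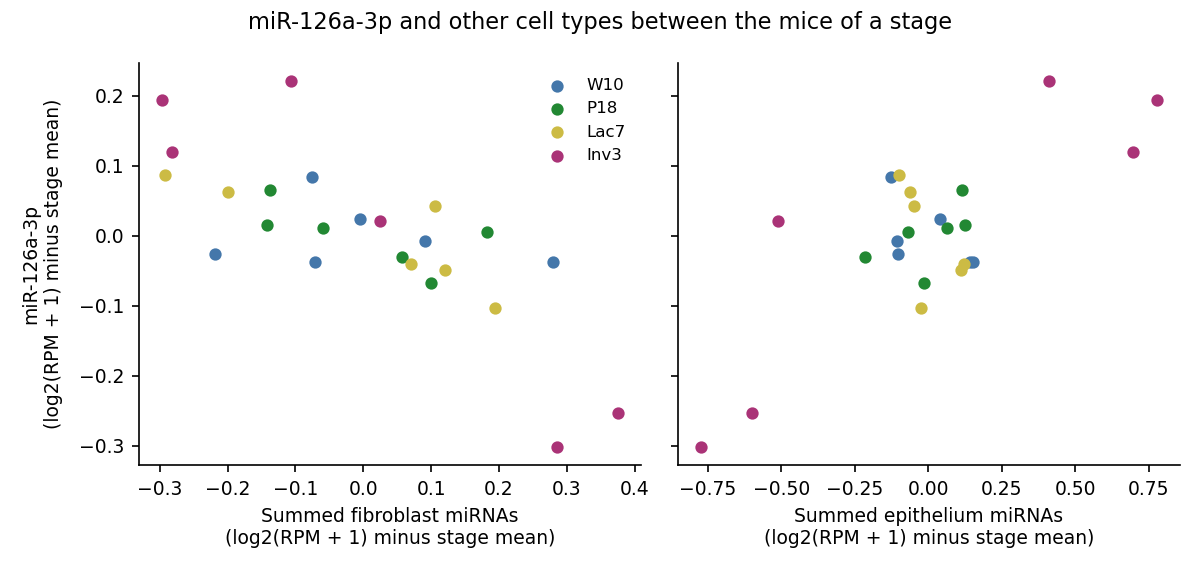
miR-126a-3p (vertical axes) against the summed fibroblast miRNAs (left) and epithelial miRNAs (right), each as log2(RPM + 1) minus the mean of the stage, with 1 point per mouse coloured by stage. Mice 1 and 2 of Inv3 are the 2 lowest points, and the relation on the left has r = -0.77 in RPM, but -0.29 with size factors.

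In Inv3 mice 1 and 2, where miR-126a-3p was lowest, the 7 epithelial miRNAs summed to 31325 and 27780 RPM and the 5 fibroblast miRNAs to 67649 and 63586 RPM. The 5 leukocyte miRNAs summed to 23991 and 23764 RPM in mice 1 and 2, against 13122 to 17372 RPM in the other 4 mice of Inv3. In mice 3, 4 and 6, where miR-126a-3p was highest, the epithelial and fibroblast miRNAs summed to 77058, 63090 and 81459 RPM and to 42872, 48445 and 42457 RPM. Mouse 5, with 15374.6 RPM of miR-126a-3p, had 33315 RPM of the epithelial and 53042 RPM of the fibroblast miRNAs. The 9 endothelial miRNAs summed to 10159 and 10304 RPM in mice 1 and 2, within the range of the other 4 mice (9802 to 11095 RPM). Across the stages, the fibroblast sum had medians of 86562, 54487, 22677 and 50744 RPM at W10, P18, Lac7 and Inv3, and the epithelial sum of 22334, 65518, 124298 and 48203 RPM. Abundant members carry these sums, as miR-199a-3p averaged 82291 RPM at W10, and miR-200a-3p and miR-200b-3p 73975 and 31252 RPM at Lac7. From P18 to Lac7, 4 of the 7 epithelial miRNAs rose, while miR-205-5p (-1.57) and miR-203-3p (-0.41) fell. Over all tested miRNAs, 75 rose and 171 fell. The mural sum, from 4 miRNAs of smooth muscle and pericytes, had medians of 93239, 146550, 140505 and 238328 RPM, and the leukocyte sum of 45050, 19403, 4810 and 17217 RPM. Most of the mural sum was miR-143-3p, with means of 92349, 145529, 138521 and 246220 RPM. The skeletal muscle sum ranged from 2378 to 24031 RPM at W10 and had a median of 274 RPM at Inv3, and that of red blood cells (4 of 5 listed miRNAs) lay between 400.2 and 2014 RPM over the libraries. Their part in the levels of the miR-126 products was not tested.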

How the data were processed

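Small RNA libraries were made from the glands of 24 mice, 1 per mouse, with a stranded QIAseq miRNA kit. Reads were counted by the authors against miRBase in QuickMIRSeq, and the deposited values are RPM scaled to the reads on the listed miRNAs. The submitters' processing notes name Trimmomatic 0.36, cutadapt, FastQC, MultiQC and GRCm38. The use of strand or of molecular identifiers in counting is not given in the sources used here. Whole reads were recovered from the steps of the values for 100% of them, within 0.02 RPM. On these reads, edgeR called 214, 247 and 250 of the 544 miRNAs between consecutive stages.

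Two-sided tests on log2(RPM + 1) were made in R 4.3.3 with limma 3.58.1 (trended eBayes), and arm ratios likewise over pairs with at least 10 RPM in each arm. A fold change on this scale slightly understates that of rare miRNAs. Alternatives were pseudocounts of 0.1 and 10, other filters, size factors, fits of 12 libraries, a replicate block, edgeR 4.0.16 and DESeq2 1.42.0 on recovered reads, a limit on fold change and each mouse left out. Relations used 100000 permutations within stages. Python 3.11.15 and scipy 1.17.1 were used, and the limma fits were tested on simulated data.

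The members and lists were chosen with earlier results of these data known. Named miRNAs were the members, listed endothelial and angiogenic miRNAs of at least 100 RPM at a stage, the 5 most similar to miR-126a-3p, and the 3 arm pairs nearest in 3p level. miR-126b-3p and the other antisense products were chosen after their values were seen. Mouse numbers were not treated as pairs in the main fits. Once stage means were subtracted, correlations averaged -0.05 over 33 pairs of same-numbered libraries and 0.00 over 183 others. They ranged from -0.79 to 0.61 and from -0.83 to 0.79, and averages cannot show whether some numbers share a batch.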

Additional observations from a re-analysis of the deposited data

How the results depend on the processing

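Of 530 alternative values for 24 log2 differences, 458 kept their direction and side of the threshold, 37 lost and 3 gained a call in the same direction, and 32 changed sign. No difference that was called in RPM changed sign. With size factors, edgeR and DESeq2 in turn, the sign changed for miR-126a-3p in P18 against W10 (0.24, 0.29 and 0.24), Inv3 against W10 (0.35, 0.39 and 0.36) and Inv3 against P18 (0.10, 0.10 and 0.12), for miR-126a-5p in Lac7 against W10 (0.32, 0.22 and 0.31) and Inv3 against W10 (0.27, 0.30 and 0.27), and for miR-126b-5p in Lac7 against W10 (0.50, 0.40 and 0.49) and Inv3 against W10 (0.17, 0.21 and 0.17). For miR-126a-5p in Inv3 against Lac7 it changed with size factors (-0.042) and DESeq2 (-0.037). Of these reversed differences, that of miR-126a-3p in P18 against W10 was called by edgeR and DESeq2. Those of miR-126a-3p in Inv3 against W10 and of miR-126b-5p in Lac7 against W10 were called with size factors, edgeR and DESeq2. The others were not called. miR-126b-5p in Inv3 against P18 gained a call with size factors (0.38) and DESeq2 (0.38). The fall of miR-126b-5p from W10 to P18 was not called with size factors (-0.21), edgeR (-0.15) or DESeq2 (-0.20), and its difference from Lac7 to Inv3 was called by DESeq2 only (-0.32). With no filter, more miRNAs were tested, and calls were lost for miR-126a-3p in Lac7 against P18 (0.24, adjusted p = 0.0916), Inv3 against Lac7 (-0.26, adjusted p = 0.0547) and Lac7 against W10 (0.23, adjusted p = 0.0724) and for miR-126b-5p in Lac7 against P18 (0.40, adjusted p = 0.0506). The fit of 12 libraries lost miR-126a-3p in Inv3 against Lac7 (-0.26, adjusted p = 0.0616). A limit of 1 on the absolute log2 fold change removed every call of a member, whose values lay at -0.71, -0.46, 0.24, 0.47, 0.40 and -0.26 between consecutive stages.

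Leaving out each mouse gave 0.22 to 0.26 for miR-126a-3p in Lac7 against P18, -0.31 to -0.20 in Inv3 against Lac7 and 0.21 to 0.25 in Lac7 against W10, 0.37 to 0.60 for miR-126a-5p and 0.35 to 0.48 for miR-126b-5p in Lac7 against P18, and -0.45 to -0.36 for the arm ratio in Inv3 against Lac7. Uncalled differences that changed sign ranged from -0.022 to 0.0082 for miR-126a-3p in P18 against W10 (positive without W10 mouse 7 or P18 mouse 1), from -0.077 to 0.028 in Inv3 against W10 and -0.068 to 0.036 in Inv3 against P18 (positive without Inv3 mouse 1 or 2), and from -0.10 to 0.00013 for miR-126b-5p in Lac7 against W10 (positive without W10 mouse 7). Leaving out Inv3 mice 1 and 2 together, chosen after seeing the data like the antisense sums and the relations without Inv3, gave -0.12 for miR-126a-3p and -0.33 for the arm ratio in Inv3 against Lac7, and 0.11 for miR-126a-3p in Inv3 against W10 and against P18. The relations of miR-126a-3p that changed sign were those with the mural sum (r = 0.199 with size factors), the leukocyte sum (r = 0.00593 with size factors and 0.366 without Inv3) and the epithelial sum (r = -0.216 without Inv3), none of them called on either side. With a replicate block for the mouse number, miR-126a-3p in Lac7 against W10 was 0.22 (adjusted p = 0.0508), and no other call of a member changed. Of 23 libraries with a same-numbered partner, 3 correlated best with their own number. A filter at 100 RPM, which leaves fewer miRNAs to test, gave 127, 132, 151, 164, 123 and 101 calls, against 226, 246, 255, 363, 213 and 155, in P18 against W10, Lac7 against P18, Inv3 against Lac7, Lac7 against W10, Inv3 against W10 and Inv3 against P18. Reads limit the rarer products most, with 121 to 407 reads of miR-126a-5p and 85 to 183 of miR-126b-5p per library.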
